A study of Mus musculus with 67 samples.

Results

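Replication-dependent histone genes supply the core histones H2A, H2B, H3 and H4 on which DNA is wound, and linker histone (H1) genes supply the protein that binds DNA between nucleosomes. Genes were taken from the expression matrix when the symbol began with H2ac, H2bc, H3c or H4c and a digit, or with H1f and a digit. The rule used names only, and found 60 of the 25006 genes: 14 of H2A, 14 of H2B, 12 of H3, 10 of H4 and 10 of H1. In all, 58 of them were among the 15567 genes that reached at least 1 TPM (a length-scaled share of the library's transcripts) in at least 3 libraries. The 2 others, H1f7 and H1f8, the testis and oocyte linker histones, never exceeded 0.154 and 0.631 TPM. By position on GRCm38, 46 genes lay on chromosome 13 (21715711 to 23934913), 10 on chromosome 3 (96219885 to 96270192), and 2 each on chromosomes 15 and 6.

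The levels came from 67 RNA-seq libraries of wild-type mouse embryos, each made by Smart-seq2 from a small pool of cells. At embryonic day (E) 3.5 the groups were the inner cell mass (ICM) and the trophectoderm (TE), the outer layer of the blastocyst. TE was also taken at E4.5. From it descend the trophoblast giant cells (TGC) and the extra-embryonic ectoderm (ExE), both taken at E4.75 and from E5.5 embryos grown in vitro, and ExE from E5.5 embryos in vivo too. Epiblast (Epi), the layer that forms the fetus, was taken at E4.5, E4.75, E5.0 and E5.25, at E5.0 and E5.25 in vivo, and at E5.5 in vitro and in vivo. Primitive endoderm (PrE), a precursor of the yolk sac, was taken at E4.5, E4.75, E5.0 and E5.25. Its later form, visceral endoderm (VE), came from E5.5 embryos in vitro, and in vivo as 2 groups named VE_Epi and VE_ExE. All groups share the wild-type label, and the design text gives a reporter line in which the Pdgfra promoter, active in primitive endoderm, drives EGFP for isolating lineages. In vivo embryos were dissected from the decidua and in vitro embryos were grown in Matrigel. For groups of E4.5 to E5.25 with no suffix the labels do not state which. Of the 23 groups 19 had 3 libraries, and TGC of E5.5 had 4. VE_Epi and the in vivo E5.5 groups of Epi and ExE had 2.

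Most histone messages are made in S phase, when newly copied DNA needs new nucleosomes. Unlike other messages they end in a short stem-loop, bound by SLBP (stem-loop binding protein), in place of a poly(A) tail, and they are destroyed when replication stops. Some transcripts of the same genes carry a poly(A) tail, and the replacement linker histones H1f0 and H1f10 are polyadenylated and expressed outside S phase. The labels give the molecule as polyA RNA and Smart-seq2 primes on poly(A), so these values describe the part of histone RNA that such priming captures.

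Read numbers cannot be had from TPM, so the depth of each library is unknown, and a gene listed at 0 may be a failed estimate. Column sums were 985702 to 996469, and 8423 to 12644 genes reached 1 TPM in a library. Between 1 and 36 of the 60 histone genes were listed at 0 in a library, and 9 reached 1 TPM in all 67. Epi replicate 1 of E4.5 stood apart, with 3307 genes at 0 in the whole table against 13659 and 12723 in replicates 2 and 3. The ribosomal RNA precursor Rn45s held 22.0% of all TPM in Epi of E4.5, 17.6% in PrE of E4.5 and 9.33% in Epi of E5.0 in vivo, against 0.10% to 1.24% elsewhere. Actb, the cytoplasmic actin, held 0.125%, 0.139% and 0.0528% in those 3 groups and 13.3% in VE_ExE. Giant cell markers summed to 109651 TPM in TGC of E5.5 against 183.5 in ExE of E5.5 in vitro. Endoderm markers summed to 2458 to 9880 in PrE and VE, against 184 in Epi of E4.75 and at most 794 elsewhere (ExE of E5.5 in vitro). Trophectoderm and ExE markers summed to 2850 (ExE of E5.5 in vivo) to 12065 (TE of E4.5) in trophoblast. That list was not confined to trophoblast, at 3506 in PrE of E5.25, 3143 in VE of E5.5 in vitro and 1951 in Epi of E4.75. Epiblast markers summed to 1699 TPM in ICM and 151 to 1406 in Epi, lowest at E5.0 in vivo. They summed to 275 in PrE of E4.75, 182 in TE of E3.5 and 161 in VE of E5.5 in vitro. This list alone therefore does not set in vivo Epi of E5.0 apart, where endoderm markers summed to 4.45. Trophectoderm and ExE markers summed to 1416.5 there, against 1430 in unsuffixed Epi of E5.0 and 438 in Epi of E5.25 in vivo. Markers of maternal decidua reached at most 67.8 (TGC of E5.5) and of blood 18 TPM. In pools of cells, fewer cells of a type and less RNA per cell cannot be told apart.

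The start sites of these genes carry the elements that set them apart as a family, and 55 of the 60 had a promoter in the RefSeq table. In the 250 bases before the start, searched on both strands, CCAAT was present in 44 of 55 (80%) against 33.8% of all 32851 promoters. It was in 14 of 14 H2A, 12 of 12 H2B, 8 of 10 H3, 7 of 10 H1 and 3 of 9 H4 promoters. TATAA was present in 30 of 55 (54.5%) against 22.8%. The octamer ATTTGCAT, read by POU-domain factors, was present in 12 of 55 (21.8%) against 1.60%, in 6 of 14 H2A and 6 of 12 H2B promoters and in 0 of the other classes. None of the 3 motifs contains another on either strand, and a match is a description of the letters only.

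The 120 bases immediately before the start (RefSeq, GRCm38.p6, written on the gene's strand, with matches of the 3 motifs on either strand in capitals) are printed for genes whose levels carry the results. The first 3 encode the same H3 protein. H3c13 (chr3:96268534-96268653, plus strand) holds CCAAT and TATAA, whereas H3c14 (chr3:96246565-96246684, plus) and H3c15 (chr3:96239128-96239247, minus) hold none and share a run of 231 of their 250 bases. H3c13 shares no run longer than 7 with either. H2ac8 (chr13:23571221-23571340, minus) and H2bc8 (chr13:23571280-23571399, plus) are divergent and their printed windows overlap. H2ac11 (chr13:22042950-22043069, minus), H4c4 (chr13:23581448-23581567, plus) and H1f5 (chr13:21780626-21780745, minus) are the most abundant replication-dependent genes of their classes, and H1f0 (chr15:79028092-79028211, plus) is the replacement linker histone.
H3c13: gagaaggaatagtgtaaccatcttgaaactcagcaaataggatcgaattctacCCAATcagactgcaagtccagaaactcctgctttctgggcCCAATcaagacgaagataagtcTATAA
H3c14: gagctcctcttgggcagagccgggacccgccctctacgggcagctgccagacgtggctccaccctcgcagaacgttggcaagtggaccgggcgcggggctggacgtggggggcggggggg
H3c15: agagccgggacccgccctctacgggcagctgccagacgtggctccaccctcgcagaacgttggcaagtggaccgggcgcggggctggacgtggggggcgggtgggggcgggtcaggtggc
H2ac8: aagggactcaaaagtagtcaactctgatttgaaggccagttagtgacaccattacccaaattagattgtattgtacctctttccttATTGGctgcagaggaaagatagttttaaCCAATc
H2bc8: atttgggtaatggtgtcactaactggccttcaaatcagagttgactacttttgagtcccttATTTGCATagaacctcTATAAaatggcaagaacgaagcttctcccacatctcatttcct
H2ac11: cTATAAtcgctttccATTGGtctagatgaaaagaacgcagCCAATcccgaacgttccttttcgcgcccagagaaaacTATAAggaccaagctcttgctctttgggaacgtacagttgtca
H4c4: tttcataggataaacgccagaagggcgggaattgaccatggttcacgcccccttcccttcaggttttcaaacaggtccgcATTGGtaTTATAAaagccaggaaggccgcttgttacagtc
H1f5: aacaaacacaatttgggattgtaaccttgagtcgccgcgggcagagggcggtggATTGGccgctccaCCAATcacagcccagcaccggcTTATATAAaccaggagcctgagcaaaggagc
H1f0: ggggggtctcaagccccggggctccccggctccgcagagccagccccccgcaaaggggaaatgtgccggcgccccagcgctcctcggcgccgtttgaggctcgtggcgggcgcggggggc

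The stem-loop that replaces the tail was present in the annotated transcripts (GENCODE M21) of 34 of 60 genes: 8 of H2A, 8 of H2B, 8 of H3, 6 of H4 and 4 of H1. Only 44 of the models reach at least 50 bases past the stop codon, so absence of the stem-loop can mean a short annotated end. The most frequent form, in 21 genes, and the form of H4c4, shared by 4 genes, are printed to show the palindromic arms on both sides of the T-rich loop.
Most frequent stem-loop: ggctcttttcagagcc
H4c4 stem-loop: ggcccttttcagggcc
Some models hold the hexamer AATAAA, the signal for adding a poly(A) tail. H1f0, H1f8, H1f10, H2bc4, H2bc21, H4c1 and H4c11 had no stem-loop and held it after the stop. In 18 genes a model reached at least 100 bases beyond the stem-loop, and in 9 genes AATAAA lay beyond it: H1f2, H1f3, H1f6, H2ac6, H2ac8, H2bc6, H2bc9, H3c14 and H4c14. The H2ac6 model ran 2010 bases past the stem-loop and that of H3c14 1167. The H3c15 model ran 377 bases past it with no AATAAA, and that of H3c13 ended 37 bases past the stop, before any stem-loop.

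Near-identical copies limit what a level of 1 gene means. All 10 H4 genes encode 1 protein of 103 residues, and the 12 H3 genes encode 2 proteins of 136 residues, 1 residue apart: H3c1, H3c8, H3c10 and H3c11 the form called H3.1, and the other 8 the form called H3.2. Of 14 H2A genes, H2ac4, H2ac6, H2ac7, H2ac8, H2ac11 and H2ac13 encode 1 protein, and are called the 6 one-protein H2A genes here. The coding sequences of H3c14 and H3c15 are identical over 411 bases, and H3c13 differs from them by 1. Those of H2ac18 and H2ac19 are identical over 393 bases, and H2ac7 and H2ac11 differ by 2. Reads from such genes could be split between copies, and the use of strand is not given in the sources used here. H2ac1, H2bc1 and H2bc6 overlap an annotated long non-coding RNA. For these reasons summed levels per class stand beside single genes.

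H2A messages were the largest class of captured histone RNA in most groups, and a few genes carried each class. H2A held 73.8%, 74.9% and 75.4% of summed histone TPM in the libraries of TE of E4.5 and 9.05% and 16.9% in those of VE_Epi, where H1 held 67.6% on average. Over the 67 libraries the mean level was 313 TPM for H2ac11, 210 for H2ac8, 192 for H4c4 and 134 for H1f0. The other means above 100 TPM were of the 4 remaining one-protein H2A genes: 115 for H2ac13, 109 for H2ac6, 107 for H2ac4 and 105 for H2ac7. H2bc4, the highest H2B gene, had a mean of 38.5 TPM, and H3c13, the highest H3 gene, 65.8. At the other end H1f6, the testis linker histone, reached 6.86 TPM in 1 library (Epi replicate 1 of E5.25 in vivo) with a mean of 0.209, and H2bc21, H2ac21, H2bc1 and H2ac1 had means of 0.471, 0.693, 0.820 and 0.843.

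The 6 one-protein genes held 87.3% of summed H2A TPM in the median group, and between 71.1% (PrE of E4.5) and 96.0% (in vivo Epi of E5.0) in all. H4c4 held 77.5% of H4 in the median group (23.6% in PrE of E4.5 to 91.2% in Epi of E5.0). H1f0 held 44.3% of H1 in the median group, least in in vivo Epi of E5.0 (8.73%) and most in VE_Epi (95.1%). The ratio of H2A to H2B was 13.5 in the median group, 24.1 in ExE of E5.5 in vivo, and 2.47, 1.57 and 1.28 in TGC of E5.5, VE_ExE and VE_Epi.

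Most of the H2A and H2B genes found to share a promoter did not share a level. In 7 pairs on chromosome 13 an H2A and an H2B gene start at most 400 bases apart and are read in opposite directions. The H2A gene had the higher mean in 7 of 7 and was higher in at least 60 libraries in 5. H2ac8 averaged 210 TPM and H2bc8 13, a ratio of 16.1, with H2ac8 above in 67 of 67 libraries across 180 bases between the starts. H2ac11 averaged 313 and H2bc11 11.9 (26.3-fold, 67 of 67). H2ac7 averaged 105 and H2bc7 2.16 (48.5-fold, 67 of 67). The difference was absent where both genes were low: H2ac15 averaged 3.96 and H2bc15 3.05, higher in 38 of 67 libraries, and H2ac1 averaged 0.843 and H2bc1 0.820, higher in 14 of 67. Pairs were sought only among genes with a promoter in the RefSeq table, which lacks H2bc4 and H2bc21. H2ac6 ends at 23683959 and H2bc4 begins at 23684199, with means of 109 and 38.5 TPM. H2ac20 ends at 96220880 and H2bc21 begins at 96221072, with means of 29.5 and 0.471. Neither of these was counted as a pair. All are length-scaled levels, on which poly(A) capture and sharing of reads between copies also act, and those parts were not tested.

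**Figure D1:**
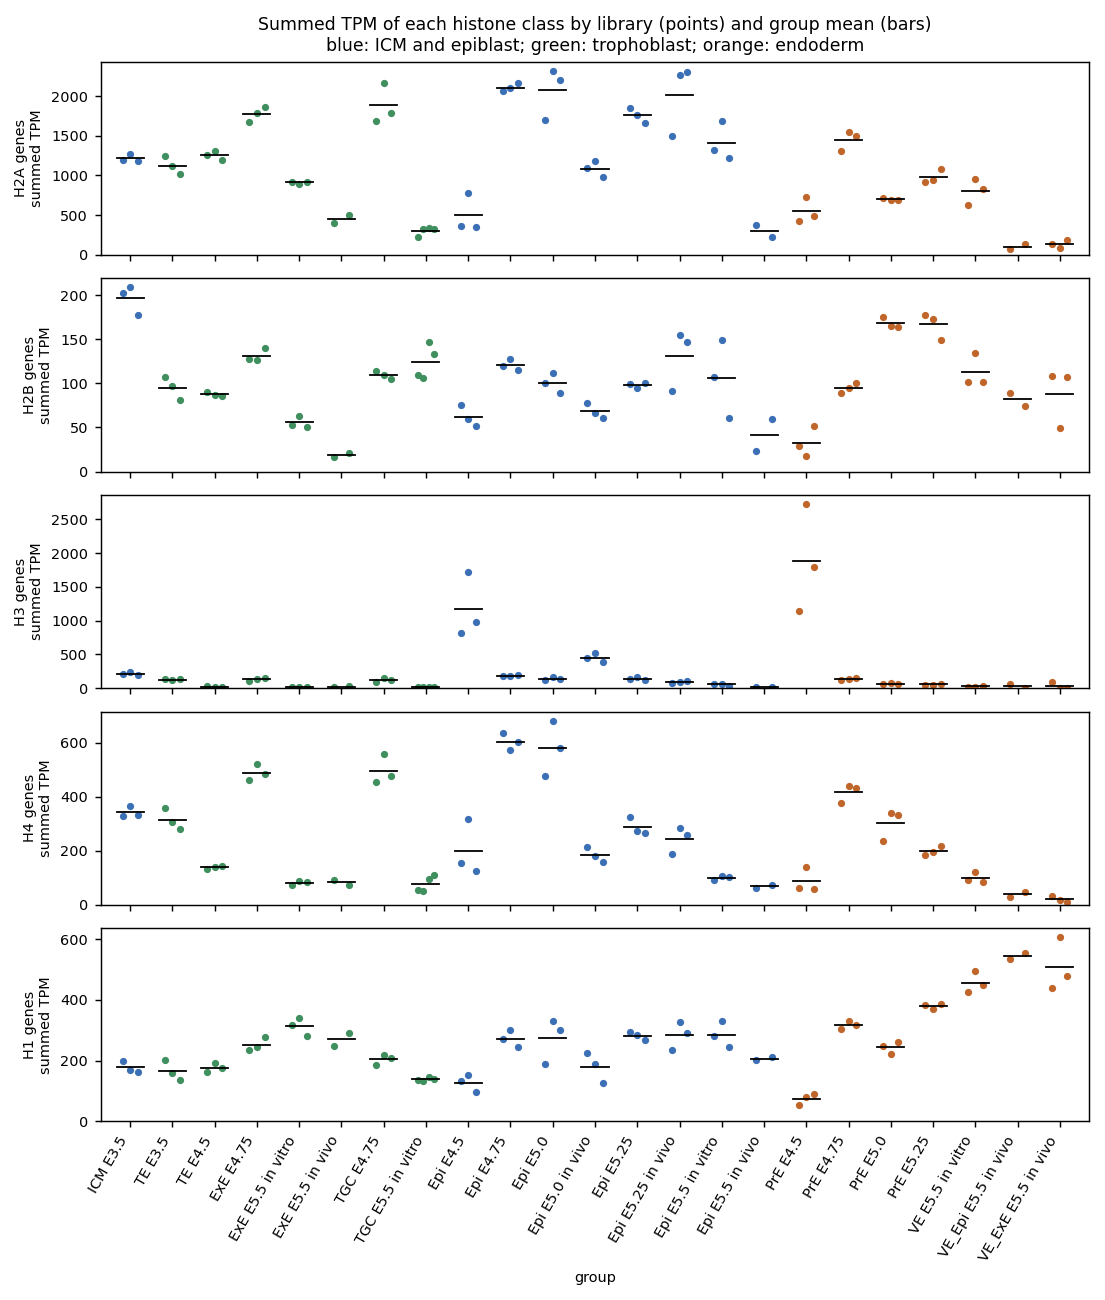
Summed TPM of each histone class (y axes, 1 panel per class) in each library (points) of the 23 groups (x axis), with bars at the group means; blue marks ICM and epiblast, green trophoblast and orange endoderm. H2A was highest in Epi of E4.75 at a mean of 2107 and lowest in VE_Epi at 105, and H3 was highest in PrE of E4.5 at 1889.

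The classes moved over different ranges between groups. Summed H3 ran from 15 TPM in ExE of E5.5 in vitro to 1889 in PrE of E4.5, a ratio of 126. H4 ran from 20.4 in VE_ExE to 604 in Epi of E4.75 (29.6-fold), H2A from 105 in VE_Epi to 2107 in Epi of E4.75 (20.1-fold), H2B from 18.8 in ExE of E5.5 in vivo to 196 in ICM (10.5-fold) and H1 from 74.8 in PrE of E4.5 to 543 in VE_Epi (7.26-fold). The plot of class sums by library shows that 2 groups, PrE and Epi of E4.5, account for the top of the H3 range and lie low for H2A. Libraries within VE_ExE spread widely, with summed H3 of 85.1, 4.72 and 1.83 TPM, so its means describe no typical library.

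H3c13, H3c14 and H3c15, the H3.2 genes of the chromosome 3 cluster, stood far above their usual level in Epi and PrE of E4.5. Their sum was 661, 1545 and 853 TPM in the Epi libraries and 1053, 2516 and 1665 in the PrE libraries. It was 62.2, 64.4 and 50.5 in ICM and 103, 101 and 115 in Epi of E4.75, so no library of these neighbours reached the lowest of E4.5. In the median group the 3 genes held 46.8% of summed H3, against 86.8% in Epi and 92.4% in PrE of E4.5 and 4.95% in VE_ExE.

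H3c14 (chromosome 3, 96246685 to 96247348) was at 187, 446 and 221 TPM in the Epi of E4.5 and 11.3, 12.5 and 10.6 in ICM, a log2 difference of 4.41 ± 0.40 (limma adjusted p = 9.9e-14). H3c15 (96238479 to 96239127) was at 211, 500 and 259 against 15.5, 15.5 and 11.9 (log2 4.31 ± 0.43, adjusted p = 3.5e-12), and H3c13 (96268654 to 96269155) at 263, 599 and 373 against 35.3, 36.5 and 28.0 (log2 3.52 ± 0.50, adjusted p = 6.5e-08). For each gene all 3 epiblast libraries lay above all 3 of ICM. By E4.75 H3c14 was at 22.3, 23.8 and 24.7 TPM, a log2 change of -3.43 ± 0.40 from E4.5 (adjusted p = 4.0e-10), and H3c15 at 28.7, 29.3 and 28.8 (log2 -3.34 ± 0.43, adjusted p = 8.4e-09). PrE of E4.5 has no fitted comparison, and its H3c14 values of 335, 757 and 508 TPM all lay above those of PrE of E4.75 and of ICM.

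H4c14, of the same cluster, was also high: 29.6, 52.5 and 17.1 TPM in the Epi of E4.5 and 24.7, 82.8 and 35.2 in PrE of E4.5, against 1.27, 4.99 and 2.95 in ICM and 1.17, 1.12 and 5.40 in Epi of E4.75 (log2 -3.33 ± 0.61 from E4.5 to E4.75, adjusted p = 1.4e-05). Another gene of that cluster did the opposite. H2ac20 (96220413 to 96220880) was at 2.08, 1.98 and 2.22 TPM in the Epi of E4.5 and 0.256, 0.259 and 0.198 in PrE of E4.5, and at 79.5, 83.8 and 102 in Epi of E4.75. The rise between the epiblast ages was 4.85 ± 0.63 on the log2 scale (adjusted p = 9.9e-09), and the libraries did not overlap.

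**Figure D2:**
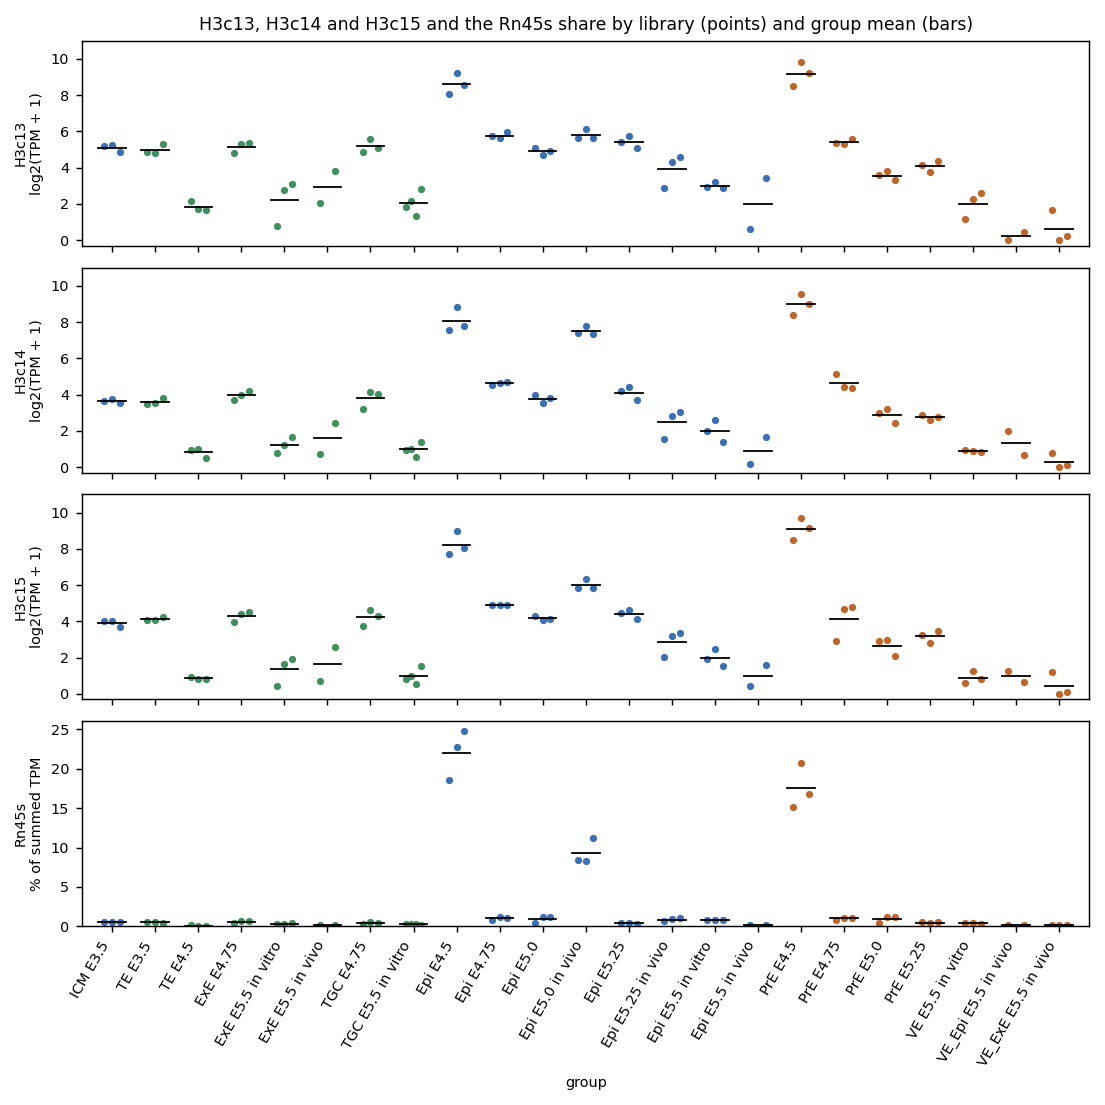
Levels of H3c13, H3c14 and H3c15 as log2(TPM + 1) and the share of TPM held by Rn45s in percent (y axes), per library (points) in the 23 groups (x axis), with bars at group means. The 3 genes and Rn45s were all high in Epi and PrE of E4.5, and in Epi of E5.0 in vivo H3c14 and Rn45s were high as well.

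The library composition of Epi and PrE of E4.5 and of Epi of E5.0 in vivo differed from the rest, and all 3 groups had high H3c14. Rn45s held 18.6% to 24.8%, 15.1% to 20.8% and 8.32% to 11.2% of TPM in them. Rpph1, the RNA subunit of RNase P, averaged 2.94, 2.96 and 2.41 TPM in these groups against 11.2 to 3218 in the others. Npat, the coactivator of histone gene transcription, averaged 27.3 and 31.0 TPM in Epi and PrE of E4.5 and at most 18.2 elsewhere. The part of RNA capture or composition in the H3 levels was not tested.

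From ICM to Epi of E4.5 the H3 genes above rose, and more of the other histone genes were called lower than higher. Of 58 members 7 were higher and 17 lower at an adjusted p under 0.05 and a log2 difference of at least 1, the rule for every call here (13.7% and 16.9% of all 15567 genes were called higher and lower). By class the counts of higher and lower were 4 and 1 of 12 H3 genes, 1 and 5 of 14 H2A, 0 and 8 of 14 H2B, and 2 and 3 of 10 H4. The higher genes were H3c13, H3c14, H3c15, H3c11, H4c6, H4c14 and H2ac18. For H4c6, 1 library of Epi of E4.5 was at 79.0 TPM, against a group mean of 27.7. When Epi of E4.75 took the place of Epi of E4.5, an alternative added after the data were seen, 8 members were called and 0 of the 6 named differences from ICM stayed called.

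H2bc12 was at 38.4, 43.7 and 28.6 TPM in ICM and 5.11, 3.97 and 3.86 in Epi of E4.5 (log2 -2.82 ± 0.43, adjusted p = 2.6e-07). H2bc11 was at 31.5, 37.2 and 27.9 in ICM, and fell by 2.46 on the log2 scale. Neither gene's libraries overlapped between the groups. H3c11, an H3.1 gene, was at 65.1, 34.3 and 30.1 TPM in the Epi of E4.5 and 12.2, 16.7 and 16.7 in ICM. H4c4, the main H4 gene (chromosome 13, 23581568 to 23581969), was at 227, 268 and 241 TPM in ICM, 75.5, 140 and 78.9 in Epi of E4.5 and 561, 506 and 530 in Epi of E4.75, so E4.5 was a low point between higher values on both sides.

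Between E4.5 and E4.75 of the epiblast 26 of 58 members were called (24.6% of all genes), of which 19 rose (16% of all genes) and 7 fell (8.62%). H2A led the rise, with 9 of 14 called higher and 0 lower, followed by 4 of 8 H1, 3 of 14 H2B and 3 of 10 H4, and 5 of 12 H3 genes fell. H2ac8 (chromosome 13, 23570663 to 23571220) was at 39.8, 79.8 and 36.9 TPM and then 515, 519 and 514 (log2 3.37 ± 0.28, adjusted p = 1.6e-14). H1f4, a replication-dependent linker histone, was at 5.98, 18.4 and 3.75 and then 81.6, 83.5 and 70 (log2 3.20 ± 0.60, adjusted p = 2.1e-05). Neither gene's libraries overlapped between the ages. Summed H2A was 501 ± 244 TPM at E4.5 and 2107 ± 51.3 at E4.75 (SD, n = 3 each). In replicates 1 to 3 of E4.5 summed H2A was 363, 783 and 356 TPM. The high spread thus came from replicate 2, and not from replicate 1, the library with few genes at 0. Rn45s and Actb moved with age as given above.

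Against ICM, where 30.6% of all genes were called in either direction, 2 of 16 genes of histone gene transcription and 3′ end formation were higher in Epi of E4.5 and 3 lower, Npat among the higher (log2 1.87 ± 0.41, adjusted p = 0.00017). Of 10 genes listed as variant histones, H2ax and H4f16 among them, 0 were higher and 3 lower, H2az1 by 1.10 on the log2 scale. No histone chaperone of 16 was called, 1 of 20 S phase genes was higher (Pola1, the catalytic subunit of the polymerase that primes replication), and 2 of 12 mitosis genes were higher. From E4.5 to E4.75, where that share was 24.6%, the counts higher and lower were 2 and 2 for 3′ end formation, 2 and 0 for variants, 2 and 0 for chaperones, 2 and 2 for S phase and 1 and 0 for mitosis.

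**Figure D3:**
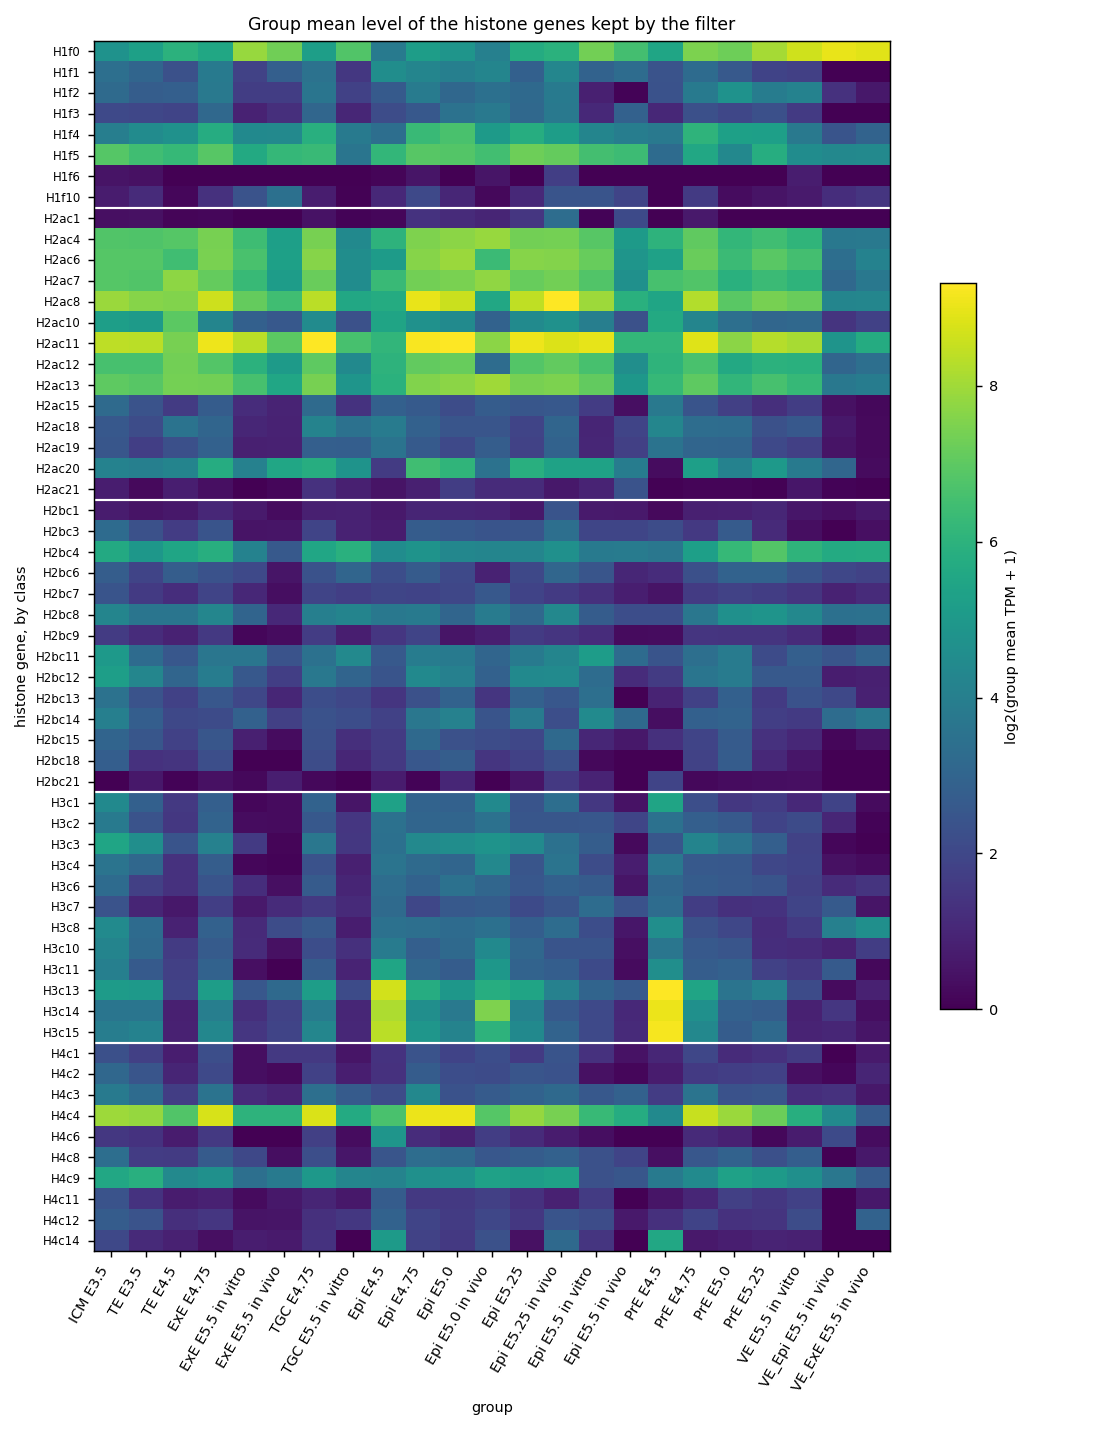
Heat map of log2(group mean TPM + 1) for the 58 histone genes kept (rows, by class) in the 23 groups (columns); the colour scale is labelled. H2ac11, H2ac8, H4c4 and H1f0 are the most intense genes over many groups, and H3c13, H3c14 and H3c15 are intense in Epi and PrE of E4.5.

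From E4.75 to E5.5 in vitro, 23 histone genes of the epiblast fell and H1f0 rose. Of 58 members 23 fell and 1 rose (11.2% and 11.1% of all genes), and in 37 every E5.5 library lay below every E4.75 library (23.1% of all genes). The calls lower were 7 of 12 H3, 4 of 14 H2A, 4 of 14 H2B, 5 of 10 H4 and 3 of 8 H1 genes, and all 14 H2A differences were below 0 (median -0.69). Summed H4 was 604 ± 29.8 TPM at E4.75 and 99.3 ± 6.29 at E5.5 (n = 3 each), with H4c4 at 74.1, 76.3 and 80.5 against values above 500 before. H3c15 was 2.86, 4.56 and 1.94 TPM at E5.5 (log2 -2.91 ± 0.43, adjusted p = 2.6e-07). The ages did not overlap for either gene.

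H1f0 was the gene that rose, to 162, 186 and 139 TPM from 37.6, 35.9 and 33.2 (log2 2.15 ± 0.21, adjusted p = 5.3e-12). H1f2, a replication-dependent linker histone, fell from 11.3, 19.6 and 10 TPM to 0, 0.275 and 2.07 (log2 -3.16 ± 0.58, adjusted p = 1.8e-05). These linker genes thus changed in opposite directions with no overlap of libraries. In the same comparison 3 of 20 S phase genes were higher, among them the helicase subunit Mcm2 (log2 1.41) and the nuclease Fen1 (1.47), and 1 was lower. Of 12 mitosis genes 0 were higher and 1 lower, of 16 in 3′ end formation 0 and 1 (Lsm11), of 16 chaperones 2 and 1 (Hat1 -1.75), and of 10 variants 2 and 1 (H3f3a, a replacement H3 gene, -1.68 ± 0.11).

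Linker histone H1f0 (chromosome 15, 79028212 to 79030504) separated endoderm from epiblast at every age compared. At E4.75 it was at 181, 183 and 169 TPM in PrE and 37.6, 35.9 and 33.2 in Epi (log2 2.29 ± 0.21, adjusted p = 9.1e-13). At E5.25 it was at 258, 273 and 270 against 42.1, 59.7 and 56.4 (log2 2.33 ± 0.21, adjusted p = 3.2e-13), and at E5.5 in vitro at 374, 427 and 398 in VE against 162, 186 and 139 (log2 1.30). The libraries of the tissues did not overlap at any of the 3 ages. In vivo VE was as high, 518 and 515 TPM in VE_Epi and 434, 599 and 405 in VE_ExE, while PrE of E4.5 held 28.1, 60.2 and 43.8.

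Outside endoderm H1f0 was low at the early ages. The lowest levels were those of Epi of E4.5, at 19.3, 14 and 6.84 TPM, of in vivo Epi of E5.0, between 13.4 and 19.9, and of ICM, at 28.0, 24.7 and 24.2. TE went from 39.6, 41.8 and 34.3 at E3.5 to 59.8, 65.8 and 63.1 at E4.5. ExE and TGC of E4.75 were at 45.8, 45.7 and 46.8 and at 37.6, 35.5 and 37.3, and at E5.5 ExE reached 243, 247 and 212 in vitro and 149 and 168 in vivo, above TGC at 101, 113, 107 and 114. In the order of group means, Epi of E4.5 and of E5.0 in vivo overlapped, as did VE_Epi and VE_ExE at the top. Rn45s held 22.0% of TPM in Epi of E4.5, 9.33% in Epi of E5.0 in vivo and 17.6% in PrE of E4.5. The part of composition in the low H1f0 levels of these groups was not tested.

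H1f5, the highest replication-dependent linker gene (chromosome 13, 21779832 to 21780625), had lower values in endoderm than in epiblast at E5.5. It was at 125, 114 and 104 TPM in ICM and 113, 134 and 108 in Epi of E4.75, but 49.2, 44.6 and 48.8 in PrE of E4.75 and 19.7, 18.7 and 19.6 in PrE of E5.0. In VE of E5.5 in vitro it was at 18.1, 30.9 and 17.1 against 86.1, 108 and 84.6 in Epi (log2 -2.07 ± 0.59, adjusted p = 0.0042). All VE values lay below all Epi values. The differences at E4.75 (log2 -1.29 ± 0.59, adjusted p = 0.11) and E5.25 (log2 -1.44 ± 0.59, adjusted p = 0.061) were not called, although PrE and Epi libraries did not overlap at either age. The fit uses a single spread per gene, shared by all 67 libraries, and not that of the compared groups alone. That spread includes VE_ExE, whose values of 1.15, 0 and 58.4 lay as wide apart as for H3.

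**Figure D4:**
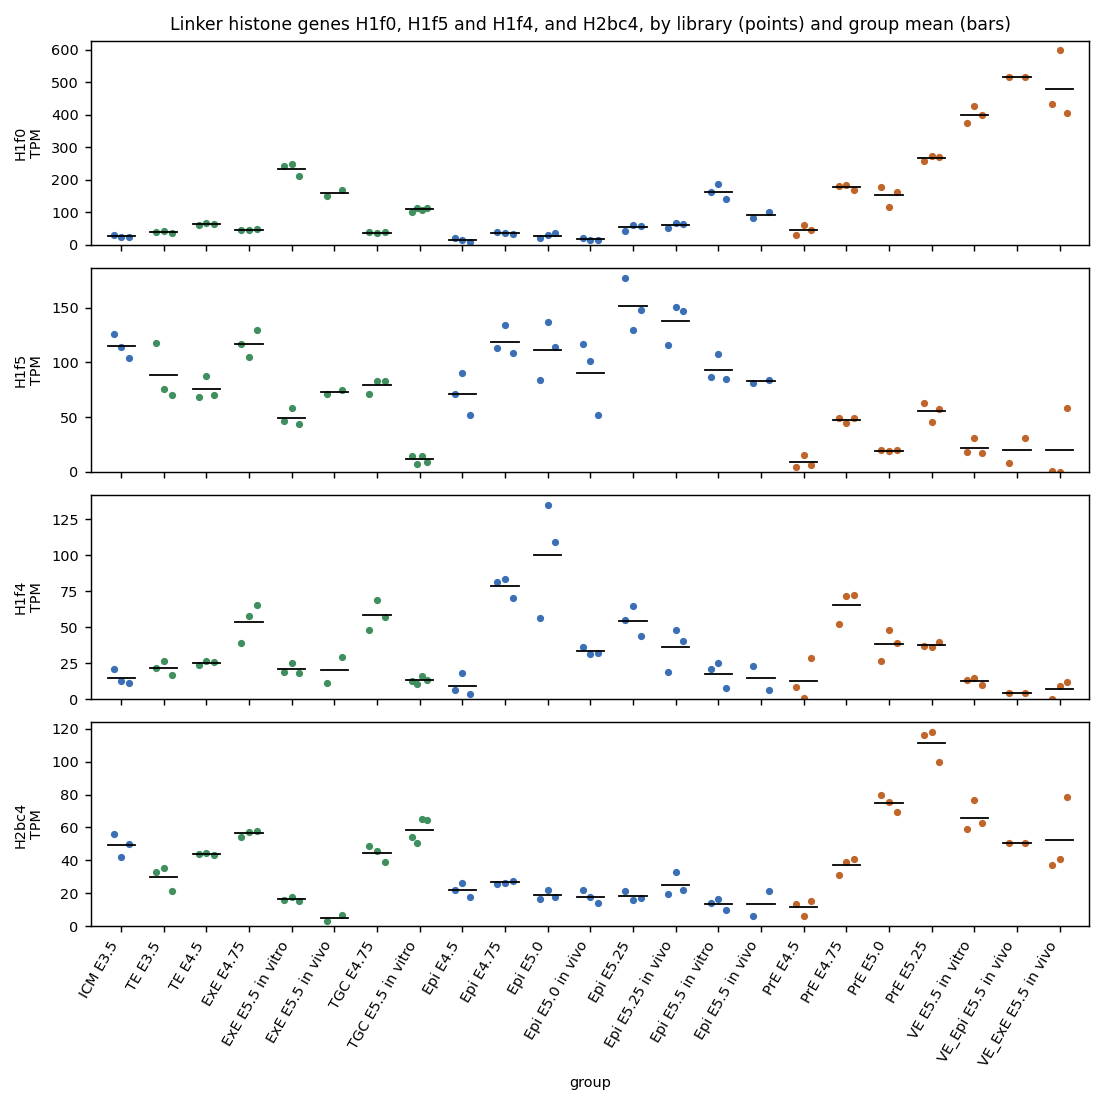
TPM of H1f0, H1f5, H1f4 and H2bc4 (y axes, 1 panel per gene) per library (points) in the 23 groups (x axis), bars at group means, coloured as for class sums. H1f0 lies at 169 to 183 in PrE of E4.75 and at 405 to 599 in VE in vivo, and H2bc4 is highest in PrE of E5.25 (99.7 to 118).

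At E4.75 few histone genes other than H1f0 were called between PrE and Epi. H1f0 was the 1 member called higher and H2bc15 and H4c2 were the 2 called lower (8.69% and 8.31% of all genes). H2bc15 differed by -1.28 ± 0.37 (adjusted p = 0.0067) and H4c2 by -1.13 ± 0.41 (adjusted p = 0.038). The H4c2 call was lost with a pseudocount of 0.1, with no filter, with median-ratio scaling and without any 1 of the 6 libraries, and the H2bc15 call with a pseudocount of 0.1. In 31 of 58 members (53.4%) every PrE library lay below every Epi library, against 32.6% of all genes. With median-ratio scaling 1 member was called higher and 1 lower. A fit of only the 2 groups called more members, with the count given in the closing section. Of the S phase list 10 of 20 were lower and 0 higher, the cyclin Ccne1 by 1.65 and Pola1 by 1.58 on the log2 scale. Of the chaperones 1 was lower (Atrx -1.43), and 0 genes of 3′ end formation, variants or mitosis were called.

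At E5.25 H1f0, H2bc4 and H2bc8 were higher in PrE than in Epi, and 6 of 12 H3 genes were lower. Here 3 members were higher and 14 lower (9.94% and 11.2% of all genes). H2bc4 (chromosome 13, 23684199 to 23692480), whose annotated transcript runs on without a stem-loop, was at 116, 118 and 99.7 TPM in PrE and 21.1, 16 and 17.3 in Epi (log2 2.56 ± 0.27, adjusted p = 5.9e-11). H2bc8, of the divergent pair printed above, was at 28.0, 27.1 and 26.7 against 6.64, 7.44 and 9.61 (log2 1.68 ± 0.38, adjusted p = 0.00047). Neither overlapped between the tissues. H3 had 6 of 12 genes lower and 0 higher (median difference -1.25), H2B 2 higher and 5 lower, H2A 0 and 3, and H1 only H1f0 as a call. The count in both directions, 17, became 11 without Epi replicate 1, Epi replicate 2 or PrE replicate 2.

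H2bc4 was higher at each later age of PrE, from 31.4, 39.0 and 40.6 TPM in PrE of E4.75 through 79.6, 75.7 and 69.6 at E5.0 to the values at E5.25, and in VE of E5.5 in vitro it was at 58.8, 76.5 and 62.7. In epiblast of E4.75 it was at 25.5, 26.6 and 27.8. The difference between tissues was larger at E5.25 than at E4.75 by 2.11 ± 0.39 (adjusted p = 0.00012), an interaction added to the fit after the design was written. For H2bc8 the interaction was 1.76 ± 0.54 (adjusted p = 0.043). These were the 2 members called of 58, both in the higher direction (3.10% of all genes), and 0 were called lower (1.48%).

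S phase genes were lower in PrE of E5.25 as a list, 13 of 20 with 0 higher, with Mcm2 at -2.16 and Mcm3 at -1.81 on the log2 scale. Mitosis genes had 0 higher and 1 lower (the kinase Plk1, -1.43), 3′ end formation 0 and 2, variants 1 and 0 (Macroh2a1, 1.94) and chaperones 1 and 3 (Rbbp7 1.28, Ssrp1 -1.23). The median difference was -1.27 for the S phase list, -0.75 for the 58 histone genes and -0.10 for all genes.

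In VE of E5.5 in vitro, 6 members were higher and 10 lower than in Epi (17.3% and 11.3% of all genes). H1f0, H1f2, H2bc4, H2bc8, H2ac18 and H4c9 were higher. H1f2 was at 16.6, 16.5 and 16.8 TPM in VE and 0, 0.275 and 2.07 in Epi (log2 3.48 ± 0.58, adjusted p = 2.2e-06), H4c9 at 19.1, 32.9 and 19.6 against 0, 4.65 and 7.38 (log2 2.74 ± 0.64, adjusted p = 0.00043), and H2bc4 differed by 2.23 ± 0.27 (adjusted p = 2.1e-09). All VE libraries lay above all Epi libraries for the 3 genes. Lower calls were 4 of 12 H3, 3 of 14 H2B (H2bc11 by 2.23 and H2bc14 by 2.59 on the log2 scale, the latter lost with a pseudocount of 0.1, in a fit of only the 2 groups and without Epi replicate 2), 1 of 14 H2A and 2 of 8 H1.

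Of the S phase list 9 of 20 were lower in VE and 1 higher, with Mcm2 at -1.95 and the cyclin Ccne2 at 1.95. The 3′ end list had 3 higher, Npat among them (1.06), and 1 lower. The chaperones had 2 higher and 2 lower (Rbbp7 1.96, Chaf1b, a subunit of the assembly factor CAF-1, -1.11), variants 2 higher and 0 lower, and mitosis 0 higher and 1 lower.

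In the trophectoderm 7 core histone genes were lower than in ICM at E3.5, and 8 of 12 H3 genes fell by E4.5. Against ICM 0 members were higher and 7 lower (5.92% and 7.62% of all genes), so that 12.1% were called in either direction against 13.5% of all genes. The 7 were H3c1, H3c2, H3c6, H3c11, H2bc11, H2bc18 and H4c8. H2bc11 was at 8.93, 11.5 and 5.41 TPM in TE and 31.5, 37.2 and 27.9 in ICM (log2 -1.83 ± 0.55, adjusted p = 0.012), and H3c1 at 7.94, 4.38 and 6.23 against 20.6, 23.3 and 17.2 (log2 -1.59 ± 0.49, adjusted p = 0.013). All TE values lay below all ICM values for both. With a pseudocount of 0.1 neither call held and 1 member was called in all. Without ICM replicate 2 the count was 2 and both calls were lost, without TE replicate 3 it was 4 and H2bc11 was lost, and without TE replicate 2 H3c1 was lost. Of the background lists only S phase had calls, 0 higher and 6 lower (Gins2 -1.58 ± 0.19, Mcm6 -1.50).

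From E3.5 to E4.5 of the trophectoderm 2 members rose and 12 fell (3.25% and 18.3% of all genes). H3 held 8 of the 12, with a median difference of -1.73. H3c13 went from 27.8, 26.7 and 38.1 TPM to 3.55, 2.27 and 2.15, H3c14 from 10.4, 10.7 and 12.8 to 0.953, 0.989 and 0.395, and H3c15 from 15.9, 15.8 and 17.8 to 0.884, 0.784 and 0.770 (log2 -3.27 ± 0.43, adjusted p = 1.8e-08). No libraries of the 2 ages overlapped, and the 3 genes were high in Epi and PrE of the same labelled age. H4c4 went from 273, 225 and 194 TPM to 100, 114 and 113.

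Summed H2A did not share this fall, at 1125 ± 111 TPM at E3.5 and 1252 ± 54.7 at E4.5 (SD, n = 3 each). H2ac10 rose from 37.0, 32.9 and 28.5 TPM to 129, 139 and 102 (log2 1.87 ± 0.37, adjusted p = 5.6e-05) and H2ac18 from 4.67, 2.84 and 2.93 to 8.33, 16 and 7.88 (log2 1.35 ± 0.40, adjusted p = 0.0079), neither with overlap, though the H2ac18 call was lost with a pseudocount of 0.1 and without TE replicate 2 of E4.5. The median of all genes was -0.26 on the log2 scale and 0.00 with median-ratio scaling, under which 8 members rose and 6 fell. Without TE replicate 2 of E4.5 the count in both directions was 8. Of the S phase list 11 of 20 were lower and 0 higher (Rrm2, a subunit of ribonucleotide reductase, -2.04), of mitosis 5 of 12 (Aurka -1.55), of 3′ end formation 2, of chaperones 2 and of variants 2 (H2ax -2.54, H3f3a -1.09), each with 0 higher.

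Trophoblast giant cells enlarge by copying their DNA without dividing. At E4.75 no histone gene was called between TGC and ExE. By limma 0 of 58 members were called higher and 0 lower, where few of all genes were called (2.12% and 2.24%). An unadjusted limma p under 0.05 was found for 1 member, against 15.3% of all genes. Because the fit shares a single spread per gene over all groups, few small p-values do not show equal levels. Every TGC library lay above every ExE library in 4 members and below in 9 (11.5% and 36.5% of all genes). H2ac11 was at 585, 734 and 589 TPM in TGC and 501, 551 and 564 in ExE, and H2ac6 at 186, 229 and 176 against 165, 171 and 178. The H2ac11 values of TGC lay above those of ExE and the H2ac6 values overlapped. Of the background lists only 1 S phase gene (Pola1 -1.01) and 1 chaperone (Hat1 -1.04) were called, both lower, although the median difference of the mitosis list was -0.75 and of S phase -0.58.

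At E5.5 in vitro, the 6 one-protein H2A genes were lower in giant cells than in ExE, and 3 H2B genes and 3 H2A genes of chromosome 3 were higher. There 8 members were higher and 10 lower (6.28% and 31.5% of all genes), so fewer members than the share of all genes were lower and more were higher. H2ac11 was at 62.6, 107, 111 and 103 TPM in TGC and 328, 321 and 340 in ExE, and H2ac6 at 16.5, 23.4, 23.6 and 28.5 against 108, 110 and 80.0 (log2 -2.07 ± 0.21, adjusted p = 2.4e-12). Lower H2A calls were the 6 one-protein genes and H2ac12. Summed H2A was 305 ± 56.3 TPM (n = 4) against 913 ± 13.6 (n = 3), with no overlap.

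H2B went the other way: 3 of 14 genes were higher and 0 lower, and the sum was 124 ± 19.6 against 55.9 ± 6.46 TPM. H2bc4 was at 54.4, 50.7, 65.4 and 64.4 TPM in TGC and 16, 18.1 and 15.6 in ExE (log2 1.76 ± 0.26, adjusted p = 7.4e-08). H2ac18 was at 6.46, 10.6, 17.6 and 6.13 against 0.930, 1.40 and 0.680 (log2 2.39 ± 0.38, adjusted p = 4.6e-07), and its copy H2ac19 differed by 1.93 ± 0.50 (adjusted p = 0.0011). All TGC libraries were above all ExE libraries for these genes. The other higher calls were H2ac20, H2bc6, H2bc8, H3c2 and H4c3, while summed H3 was 15.5 ± 1.54 against 15 ± 3.33 TPM, a difference below the spread.

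Of 8 linker histone genes 3 were lower in giant cells of E5.5 and 0 higher, where 31.5% of all genes were lower. H1f0 was called lower (log2 -1.10), H1f5 was at 14.6, 7.42, 14.1 and 9.42 TPM against 46.1, 58.7 and 43.5 (log2 -2.06 ± 0.56, adjusted p = 0.0017), and H1f10 at 0, 0, 0 and 0.147 against 2.84, 6.87 and 3.03 (log2 -2.26 ± 0.31, adjusted p = 1.4e-08). H1f0 and H1f5 did not overlap, and H1f10 was listed at 0 in 3 of 4 giant cell libraries. The H1f5 call was lost with median-ratio scaling.

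Scaling matters more here than elsewhere, because the median of all genes lay at -0.51 on the log2 scale and at 0.00 with median-ratio scaling. With that scaling 14 members were higher and 3 lower, the counts of H2A were 3 and 2 in place of 3 and 7, those of H2B 8 and 0, and the H1 median moved from -0.34 to 0.10. The median of the 58 members was 0.15 before it, against the -0.51 of all genes.

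The background lists of cell cycle and histone supply genes were mostly lower in giant cells. Of 20 S phase genes 18 were lower and 0 higher (median -2.43), with the helicase gene Mcm2 at -3.26 and Pcna, the sliding clamp, at -1.75 ± 0.10. All 12 mitosis genes were lower (median -3.23), with Plk1 at -4.63 and Mki67 at -3.48 ± 0.28. Of 16 genes of 3′ end formation 14 were lower and 0 higher, with Npat at -2.19 ± 0.38 and Slbp at -1.54 ± 0.13. Slbp averaged 53.6 TPM in TGC of E5.5, the lowest of the 23 groups. Of 16 chaperones 13 were lower and 0 higher (Chaf1b -2.79 ± 0.18), and of 10 variants 4 were lower and 1 higher (H3f3a -1.48, H2az2 -2.32, H2aj 1.87). With median-ratio scaling 12 S phase, 11 mitosis, 3 of 3′ end formation and 7 chaperone genes stayed lower.

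**Figure D5:**
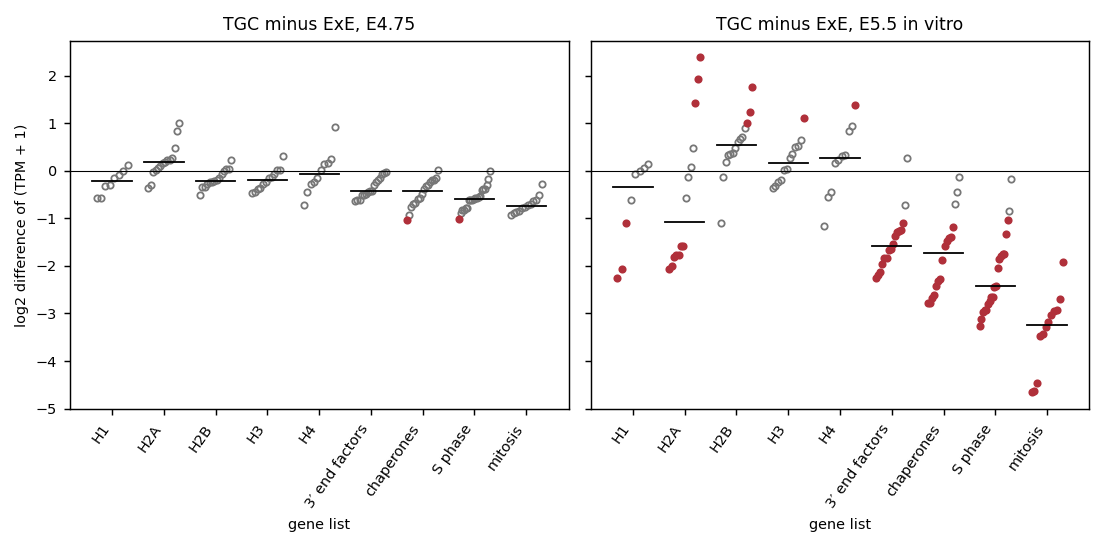
Log2 differences TGC minus ExE (y axis) of histone genes by class and of the background lists (x axis) at E4.75 and at E5.5 in vitro; filled red points were called, and bars are medians. At E5.5 the mitosis median is -3.23 and the S phase median -2.43, while at E4.75 0 histone genes were called.

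The change between ages was tested as an interaction, added after the design was written. It called 3 members higher at E5.5 than at E4.75 and 8 lower (3.73% and 16.1% of all genes): H2bc4, H2bc8 and H2ac19 higher, and H2ac12, H1f10 and the 6 one-protein H2A genes lower. For H2ac6 it was -2.26 ± 0.30 (adjusted p = 4.3e-08) and for H2bc4 2.11 ± 0.38 (adjusted p = 1.7e-05). In the same test Mki67 was -2.55, Plk1 -3.91, Chaf1b -2.22, Pcna -1.19 and Slbp -1.13 ± 0.18. Giant cell markers summed to 21310 TPM in TGC and 1779 in ExE at E4.75, and endoderm markers to 627 TPM in ExE of E4.75 and 794 in ExE of E5.5 in vitro, and their part in these differences was not tested.

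In vivo epiblast of E5.0 had more H3 and less of part of H2A than the unsuffixed epiblast of that age. Of 58 members 6 were higher and 11 lower (1.97% and 23.1% of all genes). All 6 higher genes were H3 genes, H3c1, H3c4, H3c10, H3c11, H3c14 and H3c15, with a class median of 1.06. H3c14 was at 168, 220 and 161 TPM against 14.5, 10.5 and 12.8 (log2 3.75 ± 0.40, adjusted p = 5.6e-11), H3c15 at 56.4, 79.2 and 57.3 against 18.8, 15.8 and 16.7 (log2 1.84 ± 0.43, adjusted p = 0.00062), and H3c11 at 35.1, 24.7 and 29.3 against 4.13, 6.54 and 6.14 (log2 2.22 ± 0.42, adjusted p = 2.7e-05). None of these overlapped. Although H3c14 and H3c15 encode the same protein from identical coding sequences, they had unequal levels here, whereas in Epi of E4.5 H3c15 was the higher in each library, and splitting of reads between copies limits both values.

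H2A genes split within the one-protein set. H2ac8 was at 54.2, 51.2 and 36.8 TPM in vivo and 322, 455 and 356 without suffix (log2 -2.97 ± 0.28, adjusted p = 2.5e-12), and H2ac12, another H2A gene, at 9.77, 7.53 and 9.03 against 109, 166 and 149 (log2 -3.85 ± 0.25, adjusted p = 5.2e-18). H2ac4, H2ac7 and H2ac13 were not called: H2ac4 was at 229, 264 and 214 against 159, 217 and 238, H2ac7 at 222, 234 and 200 against 129, 205 and 181, and H2ac13 at 256, 271 and 234 against 158, 233 and 225. H2ac8 and H2ac12 did not overlap between the groups and H2ac4 did. The sum of the 6 genes was 1046, 1139 and 940 TPM against 1513, 2048 and 1927.

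The in vivo libraries of E5.0 held 9.33% Rn45s and 0.0528% Actb, the median of all genes was -0.39, and with median-ratio scaling (median -0.10) 9 members were higher and 5 lower, with the H2A median moving from -0.24 to 0.11 and the H1 median from -0.11 to 0.41. S phase genes had 13 lower and 1 higher (Mcm2 -2.44, Fen1 -2.13), 3′ end formation 7 lower and 0 higher (Srrt -1.99), chaperones 4 lower and 0 higher, variants 3 and 0, and mitosis 4 and 0. The part of composition in the histone values was not tested.

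At E5.25 the direction was the opposite for H3c14 and H3c15. There 6 members were higher in vivo and 3 lower (2.70% and 7.99% of all genes), the 3 lower being H3c13, H3c14 and H3c15. H3c13 was at 6.23, 18.8 and 22.9 TPM against 41.7, 53.2 and 32.4 (log2 -1.50 ± 0.50, adjusted p = 0.033), and H3c14 at 1.96, 6.10 and 7.22 against 17.6, 20.4 and 12.0 (log2 -1.64 ± 0.40, adjusted p = 0.0024), with no overlap. H2ac8 was at 442, 749 and 727 against 384, 348 and 311 TPM, a log2 difference of 0.84 ± 0.28 (adjusted p = 0.033), short of the minimum difference for a call. The higher calls were H1f10, H2ac1, H2bc1, H2bc8, H2bc15 and H4c14, of which H2ac1 and H2bc1 overlapped between the groups. In a fit of only the 2 groups the calls of H3c13, H3c14, H3c15, H4c14, H2ac1 and H2bc1 were all lost. That of H3c13 was also lost with a pseudocount of 0.1, no filter or median-ratio scaling and without in vivo replicate 1 or either of unsuffixed replicates 1 and 2, and that of H3c15 with a pseudocount of 0.1 and without in vivo replicate 1. The H2ac1 call was also lost with a pseudocount of 0.1, and those of H2ac1 and H4c14 without unsuffixed replicate 3. Without in vivo replicate 3 H2ac1 and H2bc1 were lost, and without in vivo replicate 1 H4c14. With median-ratio scaling 10 were higher and 2 lower.

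The in vivo differences of the 2 ages were themselves compared in an interaction added after the design was written, which called 5 members higher at E5.0 and 10 lower (2.70% and 11.6% of all genes). H3c14 differed by 5.39 ± 0.56 (adjusted p = 1.6e-10), H2ac12 by -4.07 ± 0.35 (adjusted p = 6.2e-13) and H2ac8 by -3.81 ± 0.40 (adjusted p = 1.9e-10). The lists at E5.25 had few calls: 3′ end formation 1 higher and 2 lower (Npat -1.65), variants 1 and 2, chaperones 0 and 1, S phase 0 and 1 and mitosis 0 and 2. Slbp averaged 631 TPM in this in vivo group, the highest of the 23.

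At E5.5, with 2 libraries in vivo and 3 in vitro, 19 core histone genes of the epiblast were lower in vivo. Here 2 members were higher and 19 lower (6.73% and 15.1% of all genes): 9 of 14 H2A (median -1.93), 4 of 14 H2B, 5 of 12 H3 (median -1.27) and 1 of 10 H4, the H4c11 gene. H2ac11 was at 79.2 and 63.5 TPM in vivo and 470, 616 and 426 in vitro (log2 -2.79 ± 0.25, adjusted p = 1.9e-12), and H2bc13 was listed at 0 and 0 against 12.3, 6.81 and 9.50. Summed H2A was 301 ± 112 (n = 2) against 1410 ± 247 (n = 3), with no overlap. H1f3 was higher, at 5.44 and 7.61 against 2.89, 0.210 and 0.156 TPM, and H2ac1 was the other higher call. Without in vivo replicate 2 both calls were lost, and H2ac1 differed by -0.092, against 2.82 without in vivo replicate 1. Both were also lost in a fit of only the 2 groups and without in vitro replicate 3, H1f3 without in vitro replicate 2, and H2ac1 without in vitro replicate 1 and with a pseudocount of 0.1. H1f0, at 82.1 and 101 against 162, 186 and 139, differed by -0.82 ± 0.24 (adjusted p = 0.0066), short of the minimum difference for a call.

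Both in vivo libraries listed 19 histone genes at 0. The lists moved little: S phase had 1 higher and 0 lower, 3′ end formation 0 and 0, chaperones 2 and 0 (Nasp, a histone chaperone, 1.53), variants 0 and 2 (Macroh2a2 -3.10, H2ax -1.44) and mitosis 2 and 2 (Top2a 2.37, Cdc20 -1.17). 

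The same comparison in ExE of E5.5 called 2 members higher and 8 lower (2.43% and 9.40% of all genes). The lower calls were H2ac4, H2ac6, H2ac7, H2ac11, H2ac13, H2bc4, H2bc6 and H2bc8, and the higher H1f10 and H2ac20. H2bc4 was at 3.38 and 6.68 TPM in vivo and 16, 18.1 and 15.6 in vitro (log2 -1.59 ± 0.31, adjusted p = 0.00011), and H1f10 at 10.3 and 9.54 against 2.84, 6.87 and 3.03 (log2 1.14 ± 0.37, adjusted p = 0.025). Neither overlapped, nor did H2ac20, at 32.5 and 57.6 against 23.1, 0.492 and 25.3. Both higher calls were lost with a pseudocount of 0.1, in a fit of only the 2 groups and without either in vivo replicate. H1f10 was also lost without in vitro replicate 1 or 3, and H2ac20 without in vitro replicate 2. The calls of H2bc4, H2bc6 and H2bc8 were lost in the fit of only the 2 groups, H2bc6 also without in vivo replicate 2 and H2bc8 without in vivo replicate 1. Without ExE in vivo replicate 1 the count in both directions was 6. Variants had 0 higher and 2 lower, chaperones 1 higher (Nasp 1.55), mitosis 1 higher (Top2a 1.10), and S phase and 3′ end formation 0. Actb held 6.21% of TPM in ExE in vivo and 3.77% in vitro, and its part was not tested.

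Over the 14 comparisons H3c14 and H3c15 were each called 8 times (2 higher, 6 lower), and H2ac8, H2ac20, H2bc12 and H3c11 7 times each, while H1f0 was called 6 times, 5 of them higher. These counts share groups and are a description.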

How the data were processed

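Expression was measured by Smart-seq2, in which cDNA is primed on poly(A) tails and amplified, in 67 libraries of 23 groups. The authors deposited a table of TPM values, and the submitters' processing notes name mm10, StringTie 2.2.1, HISAT2 2.2.1 and Cufflinks. The annotation and the use of strand are not given in the sources used here. The members and lists were chosen with earlier results of these data known. The labels call samples of a group biological replicates. The p-values rest on the spread within groups, as a single estimate per gene shared by all 67 libraries.

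Values were analysed as log2(TPM + 1), which understates changes at low levels. All genes reaching 1 TPM in 3 or more libraries were fitted together over all groups with limma 3.58.1 in R 4.3.3, with p-values adjusted by Benjamini-Hochberg over the 15567 genes kept. A call needed an adjusted p under 0.05 and a log2 difference of at least 1. Every adjusted p printed is from this test, log2 differences carry a standard error, and levels per group a SD. Genes named by rule were up to 3 called members per direction with the largest difference. The fit was tested on simulated data. Class sums add TPM over genes and were not tested. Within groups, Pearson correlations across genes were 0.858 to 0.994 (median 0.984), and 0 pairs of libraries were identical. Over all genes, deviations of same-numbered libraries of compared groups were hardly correlated (-0.048 to 0.059), so they were not paired. The Rn45s share did follow the number in some groups. In replicates 1 to 3 it was 0.375%, 1.18% and 1.20% in Epi of E5.0 and 0.473%, 1.24% and 1.15% in PrE of E5.0. At E5.25 it did not, at 0.401%, 0.385% and 0.334% in Epi and 0.536%, 0.406% and 0.507% in PrE. Sequences came from RefSeq (GRCm38.p6) and GENCODE M21. Python 3.11.15 with pandas 2.3.3 and matplotlib 3.10.9 was used. Alternatives were a pseudocount of 0.1, no filter, median-ratio scaling over 5462 genes, rescaling without Rn45s and Actb, only the 2 groups, a replicate block and each library left out.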

Additional observations from a re-analysis of the deposited data

Results flagged for a closer look

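In TGC of E5.5, the group with 4 libraries, 1 library lay apart from the other 3 in 6 of 44 sets of values examined, where chance gives about 1 in 20, and it was not the same library in each. Summed H2A was 221 TPM in replicate 1 and 327 to 342 in the others. H1f10 was 0.147 in replicate 4 against 0. In replicate 3 H1f3 was 3.77 against 0 to 0.168 and H2bc12 11.8 against 4.83 to 5.90. In replicate 2 H2ac1 was 0.251 against 0 and H2ac19 9.21 against 4.72 to 4.78. For H1f10 and H2ac1 the other 3 libraries were all at 0, where any value above 0 counts as apart. The rate of 1 in 20 does not hold for those sets.

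Differences that changed between ages were tested as interactions with limma (log2 ± standard error). Between TGC and ExE, H2ac6 differed by -2.07 at E5.5 and 0.19 at E4.75, a change of -2.26 ± 0.30 (adjusted p = 4.3e-08), and H1f10 by -2.26 and -0.57, a change of -1.69 ± 0.45 (adjusted p = 0.0034). H2bc4 changed by 2.11 ± 0.38 (adjusted p = 1.7e-05) and H2ac19 by 2.29 ± 0.73 (adjusted p = 0.017). Between PrE and Epi, H2bc4 changed by 2.11 ± 0.39 (adjusted p = 0.00012) and H2bc8 by 1.76 ± 0.54 (adjusted p = 0.043) from E4.75 to E5.25.

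Between epiblast in vivo and without suffix, the difference at E5.0 exceeded that at E5.25 by 5.39 ± 0.56 for H3c14 (adjusted p = 1.6e-10), 3.39 ± 0.61 for H3c15 (adjusted p = 3.7e-05), 2.39 ± 0.71 for H3c13 (adjusted p = 0.014) and 2.47 ± 0.59 for H3c11 (adjusted p = 0.0018). The same change was -4.07 ± 0.35 for H2ac12 (adjusted p = 6.2e-13), -3.81 ± 0.40 for H2ac8 (adjusted p = 1.9e-10) and -1.55 ± 0.53 for H2bc1 (adjusted p = 0.035). Rn45s held 9.33% of TPM in the in vivo libraries of E5.0, and its part was not tested.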

How the results depend on the processing

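TPM hides depth, so no value here carries a counting error, and groups of 2 libraries borrow their spread from the others when 1 is left out. Of 873 alternative values for the 67 named gene differences, 785 kept their direction and call, 87 lost the call and 1 reversed: H2ac1 between Epi of E5.5 in vivo and in vitro was -0.092 without in vivo replicate 2 and 2.82 without replicate 1. Counts of called histone genes moved by over 1.5 times in these cases. A pseudocount of 0.1 gave 1 for TE against ICM, 1 for PrE against Epi of E4.75, 9 at E5.25, 7 for TE of E4.5 against E3.5 and 3 for Epi of E5.25 in vivo. Fits of only the 2 groups gave 8 for PrE against Epi of E4.75, 10 for VE against Epi, and 1, 6 and 6 for the in vivo contrasts of Epi of E5.25, Epi of E5.5 and ExE. Median-ratio scaling gave 1 for TGC against ExE of E4.75, and Epi of E4.75 in place of E4.5, added after the data were seen, gave 8 against ICM.

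With each library left out in turn the counts ranged over 2 to 8 for TE against ICM, 22 to 25 for Epi of E4.5 against ICM, 23 to 28 for Epi of E4.75 against E4.5, and 17 to 24 for Epi of E5.5 against E4.75. They ranged over 2 to 2, 11 to 15 and 11 to 16 for endoderm against epiblast at E4.75, E5.25 and E5.5, 8 to 13 for TE ages, and 0 to 0 and 15 to 19 for TGC against ExE at E4.75 and E5.5. In vivo ranges were 14 to 16, 6 to 11 and 17 to 24 for Epi of E5.0, E5.25 and E5.5 and 6 to 12 for ExE. The cause of these moves was not tested.

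The replicate number was also used as a block, a pairing that the correlations over all genes did not bear out. With it the counts were 7 for TE against ICM, 24 for Epi of E4.5 against ICM, 26 for Epi of E4.75 against E4.5, 25 for Epi of E5.5 against E4.75, 3, 17 and 15 for endoderm against epiblast, 14 for TE ages, 0 and 17 for TGC against ExE, and 17, 10, 22 and 10 for the in vivo contrasts. The block ended 0 of the named calls.

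Median-ratio scaling moved the all-gene median from -0.51 to 0.00 for TGC of E5.5, from -0.39 to -0.10 for Epi of E5.0, from -0.26 to 0.00 for TE of E4.5 and from 0.13 to 0.00 for Epi of E4.75 against E4.5 (15 higher and 8 lower). It gave 8 higher and 14 lower for Epi of E4.5 against ICM, and rescaling without Rn45s and Actb, which moved the all-gene median to 0.16, gave 9 and 13. It ended the calls of H1f5 in TGC, H2bc14 and H3c13 at E5.25 and H4c2 at E4.75. Of 138 class sums, 73 moved by over 1 SD under it (ratios 0.717 to 1.53) and 16 when rescaled (1.02 to 1.30).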
